A study of Homo sapiens with 6 samples.

Results

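The tumour necrosis factor (TNF) ligand and receptor superfamilies were followed in K562, a human erythroleukemia cell line, in wild-type cells and cells labelled ARID4B knockout. ARID4B is a subunit of the SIN3-HDAC corepressor complex. The genes were taken by name: every row of the gene table whose symbol starts with TNFRSF or TNFSF, together with FAS, FASLG, TNF, LTA, LTB, LTBR, CD27, CD40 and CD70. This gave 42 of 34495 rows, 17 ligands and 25 receptors. Messenger RNA was sequenced from 3 wild-type and 3 ARID4B knockout libraries of cells grown in medium with serum. Nothing in the labels tells whether replicates came from separate cultures or clones, so the p-values reflect the spread among these 6 libraries alone, which may be technical. The sources used here do not give how the knockout was made.

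Ligands of the TNF superfamily act as trimers on the cell surface or after cleavage, and their receptors carry cysteine-rich repeats outside the cell. One class of receptors bears a death domain that can recruit FADD and start the caspase cascade, the cell's proteolytic death programme. The other class binds TRAF adaptors and turns on NF-kappaB, a family of transcription factors kept in the cytoplasm by inhibitor proteins. Decoy receptors bind ligand without passing on a signal. In blood these proteins control lymphocyte costimulation, survival and death. TNFRSF8 is known as a surface marker of Hodgkin lymphoma cells, and TNFRSF10A and TNFRSF10B are the receptors through which the ligand TNFSF10 kills tumour cells.

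Levels are given as CPM, counts relative to the scaled library total, and the libraries held 21701404 to 30346244 estimated counts. ARID4B was 38.4, 41.0 and 40.9 CPM in wild-type replicates 1 to 3 and 8.52, 7.22 and 7.68 CPM in knockout replicates 1 to 3. Part of its message thus remained in the knockout, and RNA levels do not tell how much protein was left. Erythroleukemia markers were present in all libraries, with a summed level of 18644.5 to 20332.3 CPM in wild type and 17810.8 to 32751.8 CPM in the knockout over 12 genes. T cell, B cell and NK cell markers, the cells best known for many of these receptors, summed to 1.37 to 4.02 CPM in wild type and 3.99 to 18.3 CPM in the knockout over 6 genes each. CD8A, MS4A1, KLRD1 and GNLY were at 0 in all libraries, while other genes of these lists had counts. CD3D carried most of the T cell sum. Its wild-type mean was 3.77 CPM, against 3.75, 10.2 and 13.4 CPM for knockout replicates 1 to 3 (edgeR adjusted p = 0.0615). CD22 carried most of the B cell sum, with group means of 2.66 (wild type) and 4.44 CPM (knockout, edgeR adjusted p = 0.194). Neither gene passed. NCAM1, an NK cell marker, had 1, 0 and 0 wild-type counts against 40, 6 and 3 knockout counts and was not tested. Of the NK cell list, PRF1 rose with a log2 fold change of 2.72 (edgeR quasi-likelihood test, adjusted p = 0.00715). The fibroblast list summed to 8.83 to 9.54 CPM in wild type and 41.8, 231 and 239 CPM in knockout replicates 1 to 3, nearly all of it COL1A1 and COL1A2, while LUM had at most 1 count in any library. The megakaryocyte list (7 genes) summed to 14.4 to 16.5 CPM in wild type and 133, 108 and 48.7 CPM in the knockout. The part of these markers in the results on the TNF family was not tested, and in bulk RNA fewer cells of a type and less RNA per cell cannot be told apart. The biological coefficient of variation was 4.8% among wild-type and 32.3% among knockout libraries.

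The bases just before the start of 5 receptor genes are given first, as the results below return to these genes. The genes are TNFRSF8, which fell, its neighbour TNFRSF1B, which did not pass the test, and the risers TNFRSF21, FAS and TNFRSF9. Sequences are from RefSeq on GRCh38.p14, 250 bases each, 5′ to 3′ on the gene's own strand, ending at the base before the annotated start. In a check, the bases that follow each stretch were searched for near the opening of the gene's transcripts. They were found there for TNFRSF21, FAS and TNFRSF9, but not for TNFRSF8 and TNFRSF1B. A transcript may still begin earlier, within or before the bases shown. The exact start therefore rests on the annotation for all 5 genes. Of the 42 genes, 28 matched the promoter table. FAS has 3 annotated starts, and the first listed is shown. Capitals mark matches on either strand to the motifs searched, which were the kappaB consensus, the AP-1 motif TGANTCA, the cyclic AMP response element (CRE) TGACGTCA, the core ETS motif CCGGAAGT, the erythroid factor motif GATA as AGATAA, the SP1 GC box as GGGCGG, and the TATA box as TATAAA.
TNFRSF8 (chr1:12063053-12063302, plus strand): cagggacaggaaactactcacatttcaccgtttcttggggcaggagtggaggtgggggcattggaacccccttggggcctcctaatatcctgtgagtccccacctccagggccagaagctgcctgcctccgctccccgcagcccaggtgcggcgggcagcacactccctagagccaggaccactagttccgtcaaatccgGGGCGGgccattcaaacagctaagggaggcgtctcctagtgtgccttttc
TNFRSF1B (chr1:12166741-12166990, plus strand): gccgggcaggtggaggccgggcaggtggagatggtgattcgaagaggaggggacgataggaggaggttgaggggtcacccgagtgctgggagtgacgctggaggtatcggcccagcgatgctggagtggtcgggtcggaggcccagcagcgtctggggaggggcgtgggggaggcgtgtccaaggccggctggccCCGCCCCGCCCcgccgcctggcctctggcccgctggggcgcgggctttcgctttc
TNFRSF21 (chr6:47309906-47310155, minus strand): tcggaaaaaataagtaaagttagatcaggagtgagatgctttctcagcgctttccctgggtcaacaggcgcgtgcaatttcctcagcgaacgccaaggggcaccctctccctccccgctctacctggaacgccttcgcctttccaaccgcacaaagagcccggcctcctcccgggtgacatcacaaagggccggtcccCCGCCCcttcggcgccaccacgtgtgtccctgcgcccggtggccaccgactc
FAS (chr10:88990548-88990797, plus strand): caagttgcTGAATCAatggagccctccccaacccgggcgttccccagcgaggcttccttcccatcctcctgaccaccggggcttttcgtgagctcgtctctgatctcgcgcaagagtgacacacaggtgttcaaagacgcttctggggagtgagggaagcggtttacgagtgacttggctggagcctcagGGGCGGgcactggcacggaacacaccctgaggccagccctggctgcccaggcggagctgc
TNFRSF9 (chr1:7940840-7941089, minus strand): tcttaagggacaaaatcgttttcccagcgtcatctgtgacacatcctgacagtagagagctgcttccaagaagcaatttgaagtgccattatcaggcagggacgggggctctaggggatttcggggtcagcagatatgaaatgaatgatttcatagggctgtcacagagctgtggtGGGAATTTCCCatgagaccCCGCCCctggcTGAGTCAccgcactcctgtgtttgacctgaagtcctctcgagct
TNFRSF9 was alone among these 5 in holding a kappaB match, 74 to 64 bases before its start over both strands, and it also held an AP-1 match 44 to 38 bases before the start. FAS held an AP-1 match 242 to 236 bases before the start. Each of the 5 held a GC box, between 60 and 45 bases before the annotated start, and the matches of TNFRSF1B shared a base. These distances hold for the annotated starts only, and for TNFRSF8 and TNFRSF1B the check found no matching transcript. Of all 35116 promoter entries of this length, 9.96% hold the kappaB consensus, 6.57% AP-1, 1.65% CRE, 3.42% ETS, 9.17% GATA, 42.6% the GC box and 10.7% TATA. Among the 12 entries of 9 tested family genes, 2 held the kappaB consensus, 2 AP-1, 0 CRE, 0 ETS, 1 GATA, 9 the GC box and 1 TATA. A match describes letters and does not show that a factor binds.

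Receptors, not ligands, made up nearly all TNF family messages that could be measured in K562. Of 42 genes, 13 passed the expression filter of the test, 11 receptors and 2 ligands. Of these, 10 cleared it in both genotypes, FAS and TNFRSF9 through the knockout only, and TNFSF13B through wild type only. Another 6 had no count in any library: the ligands TNFSF8, TNFSF11 and TNFSF18, the receptor TNFRSF13B, and the soluble decoys TNFRSF6B and TNFRSF11B. A count of 0 allows a level of up to 0.102 to 0.134 CPM, depending on the library, for counting error only. The other 23 had at most 47.98 counts in a library.

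In the knockout, 6 of the 13 tested genes rose (FAS, TNFRSF9, CD40, TNFRSF21, TNFRSF10B and TNFRSF12A), TNFRSF8 and TNFRSF10A fell, and 5 missed the threshold. Of the 13696 genes tested in all, 33.7% passed the threshold of an adjusted p under 0.05, 18.3% higher and 15.4% lower. FAS and TNFRSF9 were tested only because the knockout libraries held enough counts, so they could only rise. Leaving out wild-type replicate 1, 2 or 3 left 2, 1 and 2 rises and 0 falls. Over all tested genes there were then 1243, 1156 and 1207 rises and 1106, 941 and 971 falls, against 2512 and 2107. With library totals alone or upper quartile factors in place of the scaling used here, the family gave 6 rises and 1 fall. The background then held 3120 rises and 1283 falls with library totals alone, and 2947 and 1451 with upper quartile factors, against 2512 and 2107. The knockout levels were all above the wild-type levels for 6 of the 13 genes and all below for 4, against 26.6% and 25.7% of all tested genes.

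**Figure D1:**
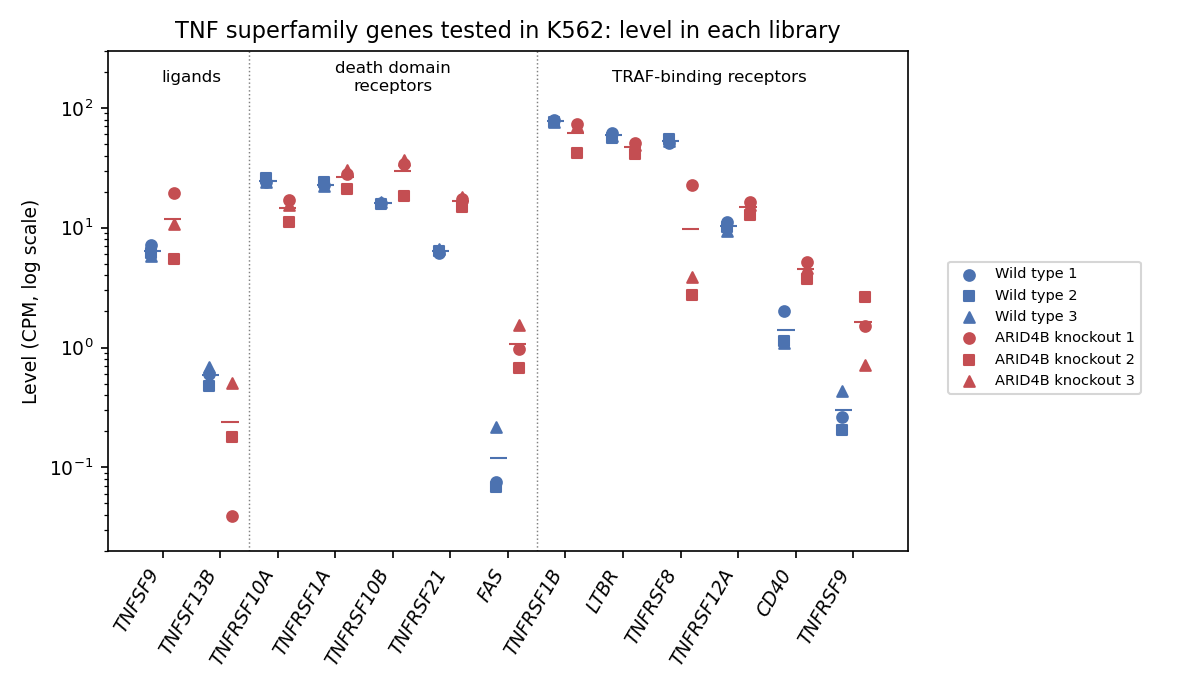
Level of the 13 tested TNF superfamily genes in each library, in CPM on a log axis, with wild type in blue, ARID4B knockout in red, 1 marker shape per replicate number, and bars at group means. TNFRSF8 falls from above 50 CPM to 22.9, 2.72 and 3.90 CPM, while FAS, CD40, TNFRSF9 and TNFRSF21 lie higher in all red points than in all blue ones.

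Among the death domain receptors TNFRSF21 (chromosome 6, 47199268 to 47277680 on hg19), best known from neurons and T cells, had the lowest adjusted p. It measured 6.12, 6.36 and 6.62 CPM in wild-type replicates 1 to 3 and 17.3, 14.8 and 17.9 CPM in knockout replicates 1 to 3. The knockout libraries lay close together and all above wild type. The log2 fold change was 1.39 (SE 0.13, adjusted p = 0.00135), or 2.61-fold. TNFRSF21 was the only family gene whose call held in all 15 alternative calculations, with log2 fold changes from 1.32 to 1.50.

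FAS, the receptor of FASLG (chromosome 10, 90729553 to 90775542), was scarcely expressed in wild type, with 2, 2 and 5 counts or 0.0751, 0.0683 and 0.216 CPM. The knockout libraries held 25, 15 and 37 counts or 0.977, 0.669 and 1.55 CPM, all above wild type. The log2 fold change was 3.15 (SE 0.58, adjusted p = 0.00828), and the level stayed low in both genotypes. Leaving out the first or the second wild-type library ended the call (adjusted p = 0.0531 and 0.0541).

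The receptors of TNFSF10 moved in opposite directions. TNFRSF10A was 24.2, 25.9 and 24.1 CPM in wild type and 17.0, 11.2 and 15.5 CPM in the knockout, changing by -0.76 on the log2 scale (SE 0.16, adjusted p = 0.0136). TNFRSF10B was 16.1, 15.9 and 16.4 CPM in wild type and 34.3, 18.2 and 36.4 CPM in the knockout, changing by 0.88 (SE 0.25, adjusted p = 0.0348). The genotypes did not overlap for either gene, although knockout replicate 2 was near the wild-type levels of TNFRSF10B. Both calls needed all 3 wild-type libraries (adjusted p without 1 of them 0.0509 to 0.0600 for TNFRSF10A and 0.109 to 0.114 for TNFRSF10B). That of TNFRSF10B also ended without knockout replicate 1 or 3 (0.0625 and 0.0798), with limma-voom (0.0612) and with an offset for neighbouring genes (0.0815).

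Both genes lie on chromosome 8 (TNFRSF10B at 22877648 to 22926700, TNFRSF10A at 23048970 to 23082680), 122269 bases apart with the decoys TNFRSF10C and TNFRSF10D between them. Other tested genes around them had medians of 0.14, 0.25 and 0.25 (log2) above wild type in knockout replicates 1 to 3, so the neighbourhood as a whole was slightly higher. The ratio of TNFRSF10B to TNFRSF10A within a library, a comparison chosen after the values were seen, does not depend on scaling or on a shift shared by the region. It was 0.665, 0.613 and 0.679 in wild type and 2.01, 1.62 and 2.35 in the knockout. TNFRSF10A had more counts in wild type and TNFRSF10B in the knockout, without overlap. The mean log2 ratio rose by 1.60 (two-sided exact permutation p = 0.1, the smallest that 3 against 3 libraries allow, and 0.1 adjusted over 3 gene pairs). The decoys held 0 to 4 counts a library: TNFRSF10C had 0 counts over wild type and 5 over the knockout, and TNFRSF10D had 1 and 5.

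TNFRSF1A, the main receptor of soluble TNF, did not pass. It was 22.5, 23.8 and 22.2 CPM in wild type and 28.3, 21.1 and 30.3 CPM in the knockout (log2 fold change 0.22, SE 0.15, adjusted p = 0.291). The genotypes overlapped through knockout replicate 2, without which the gene passed (0.35, adjusted p = 0.0307). TNFRSF25, the remaining death domain receptor, held 3 counts over wild type and 4 over the knockout.

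**Figure D2:**
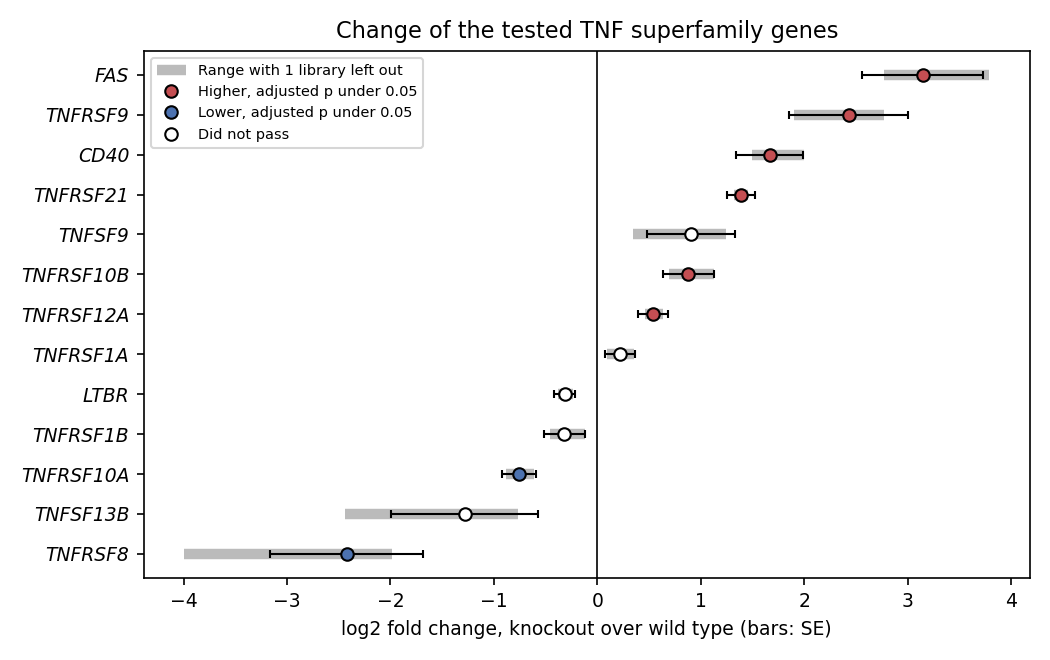
Log2 fold change of knockout over wild type for the 13 tested genes, with bars for the SE and grey bands for the range when 1 of the 6 libraries was left out. Red genes rose, blue genes fell and open circles did not pass at an adjusted p of 0.05. The band of TNFRSF8 runs from -4.00 to -1.99, the widest for a gene that passed.

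Among the TRAF-binding receptors, TNFRSF8 was the family gene with the largest fall (chromosome 1, 12123434 to 12204264). Wild type held 50.8, 55.1 and 53.0 CPM, and the knockout libraries 22.9, 2.72 and 3.90 CPM. All knockout libraries lay below wild type, but replicate 1 was far above the others. The log2 fold change was -2.42 (SE 0.74, adjusted p = 0.0438). It was -4.00 (adjusted p = 9.78e-05) without knockout replicate 1, while the call was lost without replicate 2 or 3 of the knockout (0.0641 and 0.0798), or without any wild-type library (0.109 to 0.112), and with library totals alone (0.0546) or upper quartile factors (0.0514). Its call held in 7 of 15 alternatives, among them DESeq2 (0.0258) and limma-voom with separate spreads for the genotypes (0.0029).

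TNFRSF1B, the TNF receptor without a death domain, starts 22795 bases beyond the end of TNFRSF8 and differed far less. It was 80.0, 76.3 and 76.5 CPM in wild type and 73.2, 42.3 and 70.9 CPM in the knockout (log2 fold change -0.32, SE 0.20, adjusted p = 0.25). The median of the genes around this pair was -0.34, -0.30 and -0.05 in knockout replicates 1 to 3. With an offset for it, TNFRSF8 stood at -2.13 (adjusted p = 0.0674). The ratio of TNFRSF8 to TNFRSF1B was 0.635, 0.723 and 0.693 in wild type and 0.312, 0.0643 and 0.0551 in the knockout, without overlap. The mean log2 ratio fell by 2.72 (exact permutation p = 0.1, the smallest possible), and this pair too was chosen after the values were seen.

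**Figure D3:**
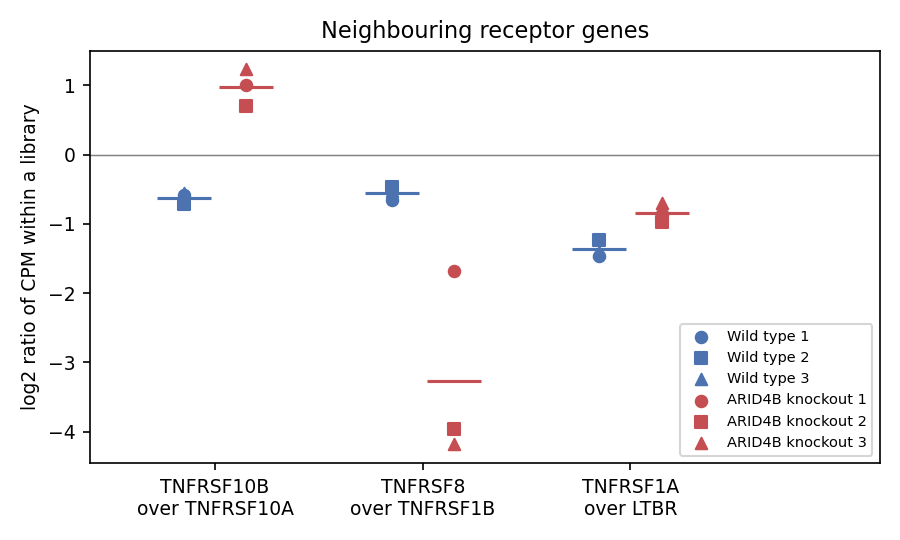
Log2 ratio of CPM within each library for 3 pairs of receptor genes that are neighbours on their chromosome, wild type in blue and knockout in red, with bars at group means. The genotypes are apart in all 3 pairs, with TNFRSF10B over TNFRSF10A going from below 0 to above 0 and TNFRSF8 over TNFRSF1B lowest in knockout replicates 2 and 3.

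CD40, the costimulatory receptor of B cells and antigen-presenting cells, rose from a low level (chromosome 20, 44746906 to 44758384). It was 2.03, 1.13 and 1.08 CPM in wild type and 5.16, 3.75 and 4.57 CPM in the knockout, all above wild type. The log2 fold change was 1.67 (SE 0.33, adjusted p = 0.00974), and the call ended without wild-type replicate 2 or 3 (0.0554 and 0.0535). TNFRSF9, a costimulatory receptor of activated T cells whose upstream sequence held the kappaB and AP-1 matches above, was 0.263, 0.205 and 0.433 CPM in wild type. The knockout libraries held 1.52, 2.63 and 0.714 CPM (log2 fold change 2.43, SE 0.57, adjusted p = 0.0189). Its levels did not overlap between genotypes, and the call needed all 3 wild-type libraries (0.0550 to 0.0893 without 1 of them).

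TNFRSF12A, the receptor of TNFSF12 and a gene induced by growth factors, measured 11.3, 10.1 and 9.48 CPM in wild type and 16.5, 12.8 and 15.6 CPM in the knockout. This rise, 0.54 on the log2 scale (SE 0.15, adjusted p = 0.031), missed the threshold without 1 of the wild-type libraries (0.0737 to 0.129), without knockout replicate 3 (0.0577) and with no expression filter (0.0592). LTBR, the lymphotoxin beta receptor, was 62.2, 55.8 and 58.8 CPM in wild type and 51.3, 41.3 and 49.4 CPM in the knockout. All knockout libraries lay below wild type, and the log2 fold change of -0.31 (SE 0.10) had an adjusted p of 0.0505, just outside the threshold. LTBR passed with DESeq2 size factors (0.0479), the DESeq2 test (0.0245), the neighbouring-gene offset (0.0199), no expression filter (0.0349) and without knockout replicate 1 (0.0282). It shares a stretch of chromosome 12 with TNFRSF1A, 33250 bases away, and the log2 ratio of TNFRSF1A to LTBR was 0.52 higher in the knockout (exact permutation p = 0.1, the smallest possible).

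Of the 2 tested ligands neither passed. TNFSF9, the ligand of TNFRSF9, was 7.17, 6.15 and 5.75 CPM in wild type and 19.6, 5.49 and 10.7 CPM in the knockout (log2 fold change 0.91, SE 0.43, adjusted p = 0.143). Knockout replicate 2 lay below all wild-type libraries and the other 2 above, and without that replicate the gene passed (1.25, adjusted p = 0.0203). TNFSF13B, a survival factor of B cells, was 0.601, 0.478 and 0.692 CPM in wild type and 0.0391, 0.178 and 0.504 CPM in the knockout (-1.28, SE 0.71, adjusted p = 0.206). It passed without knockout replicate 3, whose level lay within the wild-type range (-2.44, adjusted p = 0.0346).

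For most receptors K562 held little or no message of the matching ligand. TNFSF8, the ligand of TNFRSF8, had no count in any library. FASLG had 0 counts over wild type and 5 over the knockout, TNFSF10 had 5 and 13, and TNFSF12 had 13 and 6. TNF itself had 0 counts over wild type and 9 over the knockout, and 8 of the 9 came from replicate 1. LTA and LTB had 2 and 1 counts over wild type and 7 and 6 over the knockout. TNFSF9 and TNFRSF9 were the only ligand and receptor pair of which both were tested.

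Of the ligands below the filter, TNFSF13, a B cell survival factor related to TNFSF13B, is singled out here after its values were seen. It had 3, 0 and 1 counts in wild type and 4, 47.98 and 3 in the knockout, so that replicate 2 alone held almost all of them. TNFSF13 shares exons with the readthrough gene TNFSF12-TNFSF13, which had 3.02 counts in the same library, so the split between them is uncertain. Among receptors below the filter, TNFRSF14 and TNFRSF11A were likewise picked after their values were seen. TNFRSF14, the receptor of TNFSF14, had 24 counts over wild type and 44 over the knockout, a ratio of 2.02 after scaling (exact 95% interval 1.20 to 3.47). TNFRSF11A, a regulator of osteoclasts, had 3 and 19 (ratio 6.97, interval 2.05 to 36.8). For TNFRSF13C, with 17 and 20 counts, the interval of 0.644 to 2.63 included no change. So did those of TNFRSF4, TNFRSF10D, TNFRSF18 and TNFRSF25. The genotypes overlapped for TNFRSF14 and not for TNFRSF11A, and the intervals cover counting error only.

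Levels were then compared between genes per kilobase of exon, with exon lengths from GENCODE release 29. In wild type LTBR was highest at 24.3 ± 1.31 CPM per kb (SD, n = 3), followed by TNFRSF1B at 21.0 ± 0.566, TNFRSF8 at 14.2 ± 0.583 and TNFRSF10A at 9.12 ± 0.379 CPM per kb. Next came TNFRSF1A at 7.68 ± 0.289 and TNFRSF12A at 7.39 ± 0.648 CPM per kb, whose libraries overlapped, as did those of TNFRSF10B (3.89 ± 0.0564) and TNFSF9 (3.82 ± 0.439). TNFRSF21, CD40 and TNFSF13B followed at 1.77 ± 0.0697, 0.748 ± 0.282 and 0.221 ± 0.0402 CPM per kb. TNFRSF9 and FAS were last and overlapped, at 0.0503 ± 0.0198 and 0.0464 ± 0.0324 CPM per kb. In the knockout LTBR and TNFRSF1B kept the first places at 19.5 ± 2.18 and 16.8 ± 4.66 CPM per kb, while TNFRSF8 went from place 3 to place 9 at 2.63 ± 3.02 CPM per kb.

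The knockout libraries did not move alike. The coefficient of variation was larger in the knockout for 11 of the 13 tested genes, with a median of 27.7% against 5.41% in wild type. Replicate 2 was the lowest knockout library for 11 of the 13 genes, all but TNFRSF9, where it was highest, and TNFSF13B. Replicate 1 was highest for 7 and replicate 3 for 5. The summed level of all 42 genes was 276 to 285 CPM in wild type and 292, 181 and 261 CPM in knockout replicates 1 to 3. Over all tested genes the biological coefficient of variation was likewise larger in the knockout (32.3% against 4.8%). How often replicate 2 was lowest over all tested genes was not counted, so this is not shown to be particular to the family. What sets replicate 2 apart was not tested.

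Downstream of the receptors, gene lists of adaptors, death signalling and NF-kappaB held 70 tested genes in all, of which 22 rose and 9 fell, beside 18.3% higher and 15.4% lower among all tested genes. Some of the rises passed the expression filter through the knockout only, as stated with the lists concerned. With library totals alone 27 rose and 6 fell, beside 3120 and 1283 of all tested genes. With wild-type replicate 1, 2 or 3 left out, 10, 9 and 9 genes rose and 4, 5 and 4 fell. Over all tested genes 1243, 1156 and 1207 then rose and 1106, 941 and 971 fell, against 2512 and 2107. The counts without a wild-type library given below for each list stand beside this same general loss. Of 25 tested receptor adaptors and their ubiquitin and kinase partners, 6 rose and 1 fell, or 28% called against the background of 33.7% (2 or 3 rises without a wild-type library, 9 without knockout replicate 1). Their median was 0.07 (log2), against 0.02 for every gene tested. Of their 6 rises, 1 passed the expression filter through the knockout only and so could only rise. MAP3K5, a stress kinase, rose from 20.3 ± 1.32 to 34.8 ± 5.90 CPM (n = 3, log2 fold change 0.78, adjusted p = 0.00743). CYLD, which removes ubiquitin chains from receptor complexes, rose from 8.35 ± 0.408 to 14.0 ± 0.967 CPM (0.74, adjusted p = 0.0063). TRADD, the adaptor of TNFRSF1A, rose from 8.18 ± 0.246 to 11.3 ± 0.0876 CPM (0.46, adjusted p = 0.0288), but not without 1 of the wild-type libraries (0.107 to 0.130), with no expression filter (0.0907) or with the replicate block (0.0902). TRAF2, the adaptor shared by many TRAF-binding receptors, fell from 57.6 ± 2.97 to 43.3 ± 1.25 CPM (-0.41, adjusted p = 0.00697).

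Death signalling genes moved both ways, with 6 of 18 tested genes higher and 5 lower (7 and 3 with library totals alone), beside 18.3% and 15.4% of all tested genes, and a median of -0.10. Without a wild-type library 2 rose and 2 or 3 fell, and without knockout replicate 3, 4 rose. APAF1, the scaffold that activates caspases after release of cytochrome c, rose from 18.2 ± 1.59 to 31.8 ± 4.61 CPM (0.80, adjusted p = 0.00627). MLKL, an effector of necroptosis, rose from 1.72 ± 0.307 to 3.80 ± 1.21 CPM (1.14, adjusted p = 0.0325), but not without 1 of the wild-type libraries (0.0845 to 0.128), without knockout replicate 1 or 3 (0.0515 and 0.0548), with the replicate block (0.0595) or with no expression filter (0.0529). The falls included CYCS, which encodes cytochrome c, at -0.43 (adjusted p = 0.00456), and XIAP, an inhibitor of caspases, at -0.41 (adjusted p = 0.00647). FAF1, a FAS-binding protein, fell by 0.41 on the log2 scale (adjusted p = 0.0214), among genes whose median was -0.50, -0.37 and -0.03 in knockout replicates 1 to 3, and stood at -0.12 (adjusted p = 0.294) with an offset for them. Its call was also lost with library totals alone (0.0569) and without 1 of the wild-type libraries (0.0590 to 0.0824).

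Of 12 NF-kappaB subunits, kinases and inhibitors, 4 rose and 3 fell (5 and 2 with library totals alone, 4 and 2 with upper quartile factors), beside 18.3% and 15.4% of all tested genes, with a median of 0.00. Of the 4 rises, 1 passed the expression filter through the knockout only and so could only rise. Without a wild-type library 1 or 2 rose and 1 fell. NFKB2, a subunit of the non-canonical pathway that LTBR and CD40 engage, rose from 13.1 ± 0.814 to 25.4 ± 4.47 CPM (0.96, SE 0.15, adjusted p = 0.00463). NFKB1, the canonical counterpart, fell from 37.6 ± 3.10 to 26.3 ± 5.47 CPM (-0.52, adjusted p = 0.0439), but not without 1 of the wild-type libraries (0.0948 to 0.142), without knockout replicate 1 or 2 (0.0703 and 0.0700), with the replicate block (0.0739), or with library totals alone or upper quartile factors (0.0885 and 0.0751). The inhibitor NFKBIB and the kinase CHUK had log2 fold changes of -0.57 and -0.51 (adjusted p = 0.0156 and 0.00534), and the inhibitor NFKBIE rose by 0.40 (adjusted p = 0.0451). NFKBIB and NFKBIE did not pass without 1 of the wild-type libraries (0.0526 to 0.0667 and 0.100 to 0.173). NFKBIE was also lost without knockout replicate 1 or 2 (0.0629 and 0.0533), with the replicate block (0.0808), with no expression filter (0.0989) and with limma-voom with separate spreads (0.0613).

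NF-kappaB targets had the highest median of these lists at 1.04, and 10 of 22 tested genes rose while 0 fell, beside 18.3% and 15.4% of all tested genes. Without wild-type replicate 1, 2 or 3 the rises were 6, 5 and 5, and without knockout replicate 1 there was 1 fall. Of the 10, 4 passed the expression filter through the knockout only, and that list shares genes with the adaptor and core lists. The chemokine CCL2, 1 of the 4 and so able only to rise, went from 0.113, 0.0683 and 0 CPM in wild type to 5.90, 4.46 and 5.79 CPM in the knockout (6.32, SE 0.59, adjusted p = 0.00128). The cytokine IL6 rose from 0.634 ± 0.162 to 3.75 ± 0.812 CPM (2.55, SE 0.32, adjusted p = 0.00272). IRF1, a factor of the interferon response, rose from 5.73 ± 0.252 CPM to 19.97, 15.3 and 7.47 CPM in knockout replicates 1 to 3 (1.31, adjusted p = 0.0256), but not without 1 of the wild-type libraries (0.0885 to 0.0981), without knockout replicate 2 (0.0562), with limma-voom (0.0600) or with the replicate block (0.0504). Of 5 tested genes for the shedding of ligands and receptors, RHBDF1, a regulator of the protease ADAM17, rose from 4.83 ± 0.67 to 9.96 ± 1.82 CPM (1.04, adjusted p = 0.00982) and ADAM10 from 59.7 ± 1.90 to 77.8 ± 3.54 CPM (0.38, adjusted p = 0.00752). RHBDF1 did not pass without wild-type replicate 2 or 3 (0.0563 and 0.0562), nor ADAM10 without wild-type replicate 2 (0.0503). The other 3 did not pass, so 2 of 5 rose, beside 18.3% of all tested genes.

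**Figure D4:**
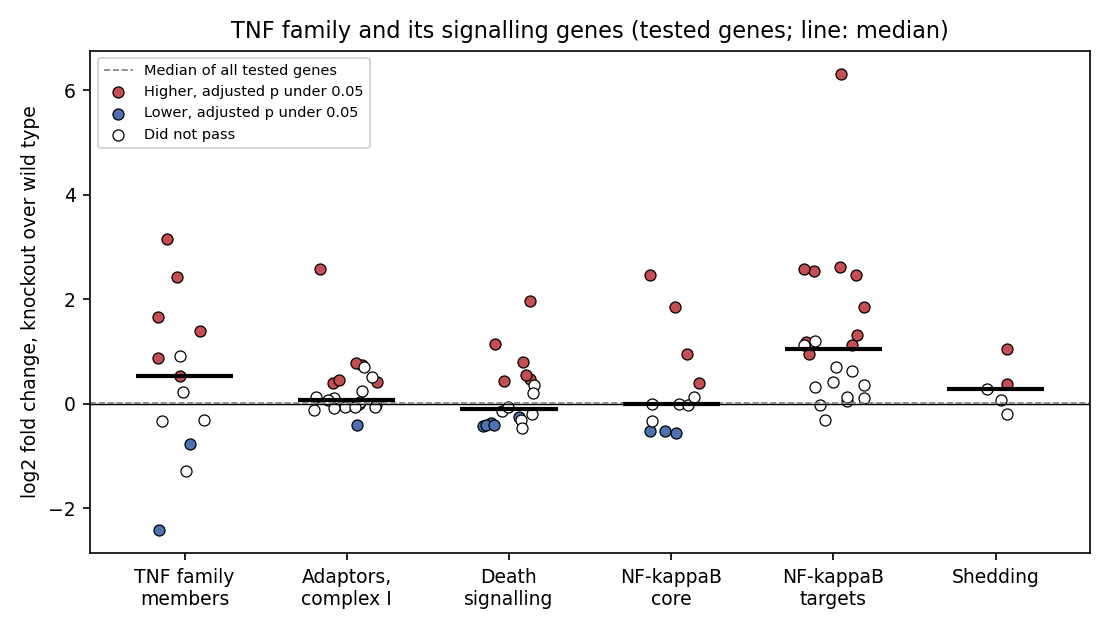
Log2 fold change of every tested gene of the TNF family and of 5 lists of its signalling partners, with red for rises and blue for falls past an adjusted p of 0.05, open circles for the rest, black bars at list medians and a dashed line at the median of all tested genes (0.02). NF-kappaB targets have a median of 1.04 and no blue point, while the death signalling and NF-kappaB core lists hold both colours.

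In the authors' deposited table of their own comparison, 9 of the 42 family genes were listed among 3153, 7 with a positive and 2 with a negative log2 fold change. TNFRSF21 stood at 1.64 (adjusted p = 0.00699) and TNFRSF8 at -2.81 (adjusted p = 0.0509) in the authors' deposited table. TNFRSF21 was the only family gene there with an adjusted p under 0.05. The authors' deposited table also listed TNFSF13 at 2.43 and TNFSF13B at -1.30 with adjusted p of 0.166 and 0.101. Here TNFSF13 was below the expression filter and not tested, and TNFSF13B was tested and did not pass. TNFRSF10A, which passed here, is not among the family genes listed there.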

How the data were processed

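Per the file headers, the authors deposited RSEM estimated counts, 1 row per gene, without normalization. STAR 2.4, RSEM 1.2.14 and the builds hg19 and GRCh37 are named, without roles, in the submitters' processing notes. RSEM splits reads among genes that share sequence, and the kit kept strand per the labels' protocols. Per the file headers, a second table deposited by the authors held log2 fold changes and p-values of their own comparison; their test is not named. All 27 symbols that had become dates were restored from their descriptions. Starts had 1 added and all gene coordinates are hg19.

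Counts were rounded and tested over all genes with edgeR 4.0.16 (R 4.3.3), quasi-likelihood F test on genotype, after TMM scaling and edgeR's expression filter at 10 counts, leaving 13696 genes. Adjusted p-values are Benjamini-Hochberg values across that whole set, and 0.05 was the threshold. The calculation was tested on simulated counts in which both genotypes shared the same spread for each gene. The unequal spread of these libraries was therefore not tried there. Alternatives were other scalings, no expression filter, DESeq2 1.42.0, limma-voom (limma 3.58.1) with common or separate spreads, the replicate number as a block, an offset for up to 50 tested genes on each side, and leaving out each library. Genes and lists were chosen with earlier results of these data known. Named were all tested family genes, and from each signalling list up to 3 rises and 3 falls with the largest change and at least 2 CPM in 1 genotype. A gene that this rule also picks is not reported here.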

Additional observations from a re-analysis of the deposited data

How the results depend on the processing

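Of the genes recomputed in the 15 alternatives, which are ARID4B, the 13 tested family genes and 20 list genes picked by the naming rule, none changed sign. Of the 8 family calls, 8 held with DESeq2 size factors, the DESeq2 test and limma-voom with separate spreads, and 7 with library totals alone, upper quartile factors, no expression filter and limma-voom. Library totals alone moved the median of all genes from 0.02 to 0.13 and left 1 fall in the family, as upper quartile factors did. Leaving out each library in turn gave 1 to 8 rises and 0 to 3 falls in the family, lowest without a wild-type library (2, 1 and 2 rises and 0 falls without replicate 1, 2 or 3). Without knockout replicate 2 there were 8 rises and 1 fall. The adaptor, death and NF-kappaB lists then held 9 to 22 rises and 4 to 11 falls, with 10, 9 and 9 rises and 4, 5 and 4 falls without wild-type replicate 1, 2 or 3. Over all genes there were 2349, 2097 and 2178 calls at these settings, against 4619. The cause was not tested. Same-numbered libraries of the genotypes hardly deviated together (correlations 0.01, 0.02 and 0.01 across genes). Differently numbered libraries all had lower correlations, from -0.020 to 0.007. With all values this near 0, whether the numbers pair the libraries cannot be told. With the replicate block, 4 family genes rose and 2 fell, the calls of TNFRSF12A (adjusted p = 0.0609) and TNFRSF9 (0.0572) ended, and 17 list genes rose and 7 fell. Depth limits the 29 family genes below the filter, none of which had more than 47.98 counts in a library.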

Other observations

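Relatives of the TNF family that the name rule did not take were also looked at, and the genes named here were chosen after their values were seen. NGFR, the low-affinity neurotrophin receptor, had few counts in wild type (0.0728 CPM) and 72, 13 and 9 counts in knockout replicates 1 to 3. It did not pass the expression filter. EDA2R, a receptor of ectodysplasin, had 6, 1 and 15 counts in the knockout. RELT was the only one of 6 such genes that was tested, at 16.8 and 18.6 CPM (log2 fold change 0.15, edgeR adjusted p = 0.323). TIMP3, an inhibitor of the sheddases, held 142, 80 and 9 counts in the knockout against 0.0767 CPM in wild type and was not tested.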
